A study of Mus musculus with 12 samples.

Results

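The late prehearing step of the mouse auditory nerve, from postnatal day 7 (P7) to postnatal day 10 (P10), was examined with the 2 arrays of each of these stages, 4 of the 12 arrays in a developmental series that also holds 2 arrays each at P0, P3, P14 and P21. The arrays were chosen by the stage in their titles, and all 45037 probe sets that are not array controls were compared. All mice were of the inbred CBA/CaJ strain, carried no introduced allele and received no treatment, so by their labels the groups differ in age; animals of both sexes were used, and the sex make-up of the arrays is given below. RNA on each array came, per the labels, from both ears of 1 mouse and from the modiolus, the bony core through which the nerve runs. Other cochlear parts were cut away, but the piece still holds bone, marrow, cartilage and vessels besides the nerve, and may hold some epithelium. The comparison addresses which transcripts differed over these 3 days, before the start of hearing.

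In the auditory nerve, spiral ganglion neurons send one process to the hair cells of the cochlea and the other to the brainstem. Schwann cells wrap the peripheral part of the nerve in myelin, and beyond a glial border inside the modiolus the same axons are wrapped by oligodendrocytes, among astrocytes. In the days before mice begin to hear, neurons switch channels and receptors, myelin is laid down, the temporary epithelial ridge that secretes the tectorial membrane regresses, and the surrounding bone is remodelled and filled with marrow.

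Levels are given on the log2 scale of robust multi-array average (RMA) values, on which a difference of 1 is a doubling of the signal. A probe set was called when its difference had a Benjamini-Hochberg adjusted p under 0.05 in limma, with a fold above 1.5 and a spread estimated from all 12 arrays in 6 stages. Where a list of genes is described, each gene is represented by the probe set with the highest mean, which gave 18194 genes. The labels describe the arrays of a stage as separate mice, with no word on litters, and p-values measure the spread between these samples.

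The labelled tissue was present on all 4 arrays. The neurofilament genes Nefl, Nefm and Nefh and the synaptic gene Snap25 lay at percentiles 97.8 to 99.5 of each array's values, the Schwann cell genes Pmp22 and S100b at percentile 97.9 or above, and Sox10 and Egr2 at percentile 90.2 or above. The neuronal genes Tubb3, Prox1 and Prph were lower, at percentiles 69.9 to 77.4, 52.7 to 53.2 and 37.2 to 41.5. None of these markers was called between P7 and P10. Median levels were 6.70 to 6.79 over the 12 arrays.

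One check went against the labels. Xist, the RNA of the inactive X chromosome in females, read 5.51 on P7 replicate 1 and 12.55 on P7 replicate 2, with 12.91 and 12.84 on the P10 arrays. The Y-linked genes Eif2s3y, Kdm5d and Uty were high on all 4, Eif2s3y reading 9.49 and 8.89 at P7 and 9.74 and 9.34 at P10. P7 replicate 2 and both P10 arrays therefore held male and female transcripts together and belonged to 6 such arrays among the 12 (Xist above 12 and Eif2s3y above 8), although the labels describe 1 mouse per array. What produced the mixture was not tested. P7 replicate 1 was the only one of the 4 with Y-linked transcripts alone.

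**Figure D1:**
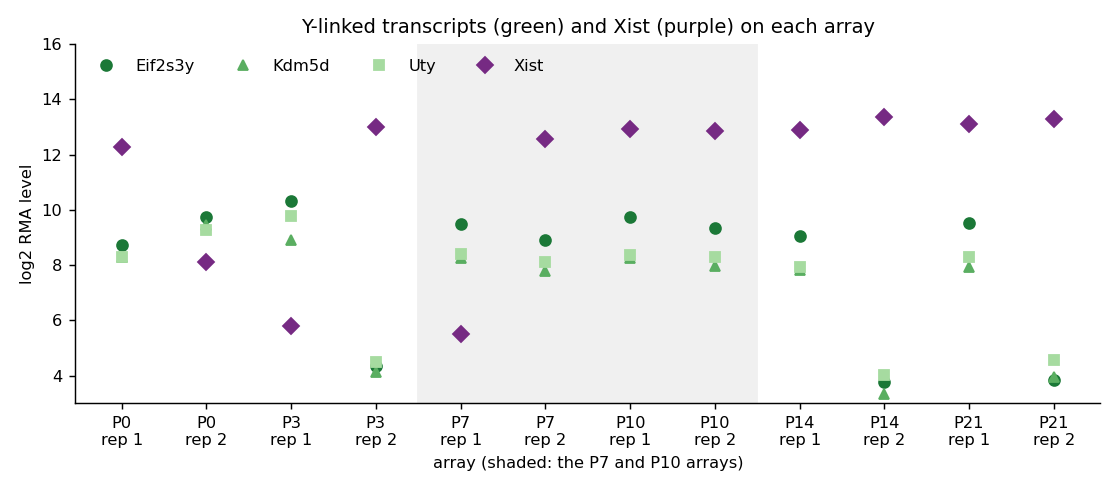
Log2 RMA level (vertical axis) of the Y-linked genes Eif2s3y, Kdm5d and Uty and of Xist on each of the 12 arrays (horizontal axis), with the P7 and P10 arrays shaded; each point is 1 array. Xist is near 5.51 on P7 replicate 1 and between 12.55 and 12.91 on the other 3 shaded arrays, while Y-linked transcripts are high on all 4.

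The arrays of the 2 stages were also close to one another. The share of probe sets that differed by more than 1.5-fold was 3.23% between the P7 arrays and 1.75% between the P10 arrays. Between stages it was 1.81% for P7 replicate 1 against P10 replicate 2, below the difference within P7, and 11.8% for P7 replicate 2 against P10 replicate 1. P7 replicate 1 thus lay nearer to P10 than its partner did, and it was the array nearer to P10 in 36 of the 47 probe sets called higher and 54 of the 57 called lower.

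From P7 to P10, 104 probe sets were called (0.231% of those tested), 47 higher at P10 (0.104%) and 57 lower (0.127%). They named 86 genes, 39 among the rises and 47 among the falls, and 9 probe sets had no single gene symbol. The median change over all genes was -0.03, and 5524 probe sets had an unadjusted p under 0.05. Of the 86 genes, 44 had at least 1 other probe set that was not called. In all 104 the P7 arrays lay on one side of the P10 arrays, a separation that 20.9% of all genes showed upward and 28.3% downward. The count depended on single arrays: it was 4 without P7 replicate 2, 2 without P10 replicate 1, 66 without P10 replicate 2 and 318 without P7 replicate 1, and it was 2 with the 4 arrays fitted alone. Of 34 called probe sets, from 33 genes, that the naming rule selected, 33 lost the call without P7 replicate 2, Cyp24a1 being the exception, and 33 lost it without P10 replicate 1, Etnppl being the exception. These fits leave 1 array at a stage, which is then assumed to vary like the other stages. The count also moved with arrays of other ages, to 38 without either P0 array and 63 without either P3 array, since those arrays contribute to the spread.

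The largest rise was in Glra3, a subunit of the inhibitory glycine receptor. Its level was 8.05 and 6.32 on the P7 arrays and 11.07 and 10.23 on the P10 arrays. Both P10 arrays were above both P7 arrays, although the P7 arrays were themselves 1.73 apart. The difference was 3.46 ± 0.46 (SE, adjusted p = 0.0238), or 11.0-fold, and it was 2.60 without P7 replicate 2 and 4.33 without P7 replicate 1. Glra3 had been near 4.92 at P3 and reached 12.07 and 11.77 at P21. A second, dimmer probe set of the gene read 4.46 to 4.59 on the 4 arrays and differed by 0.10. It was the single called member of 21 genes of GABA and glycine signalling, where 0.385% of all genes were called, and the median change of the list was -0.12. Glrb, the glycine receptor's shared beta subunit, differed by 0.50 (adjusted p = 0.311), and Gabra3 by -0.96 (adjusted p = 0.154). In bulk tissue, a change in the share of cells of a type and a change in RNA per cell cannot be told apart.

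Etnppl, an enzyme of ethanolamine phosphate breakdown found in astrocytes, read 5.19 and 5.23 at P7 and 8.48 and 7.54 at P10. It had stayed between 4.91 and 5.56 on the 4 earlier arrays, so P7 did not stand above the earlier ages. The difference was 2.80 ± 0.26 (adjusted p = 0.0135), and its other probe set rose by 1.53. Other astrocyte genes were not called: none of 14 passed, with a median of 0.10, and Agt, which encodes angiotensinogen, differed most (0.73, adjusted p = 0.235), followed by Gjb6, a connexin that the epithelium also makes (0.70), and Gfap, an astrocyte filament (0.61, adjusted p = 0.239).

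Among myelin genes, Ermn and Opalin of the oligodendrocyte rose and no gene of the peripheral myelin list was called. Ermn, a cytoskeletal protein of oligodendrocytes, read 7.14 and 5.75 at P7 and 9.50 and 8.72 at P10, a difference of 2.66 ± 0.41 (adjusted p = 0.0375). Its brighter probe set, which represents the gene in the list, gave 2.34 and missed the threshold (adjusted p = 0.0923). Opalin, a membrane protein of oligodendrocytes, read 6.83 and 6.44 at P7 and 8.26 and 8.17 at P10, a rise of 1.58 ± 0.21 (adjusted p = 0.0221); its other probe set, at 3.49 to 3.79, differed by 0.07. Among the 16 genes of the oligodendrocyte list Opalin was the only one called, and the list's median was 0.33, or 0.17 without P7 replicate 2. Mog and Mobp, which encode proteins of central myelin, differed by 2.01 (adjusted p = 0.0763) and 1.96 (adjusted p = 0.164). Mog read 8.41 and 6.98 at P7 and 9.90 and 9.51 at P10, with the P7 arrays far apart. The transcription factor genes Olig1, Myrf and Nkx2-2 differed by 0.04, 0.06 and 0.12, with overlapping arrays.

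In peripheral myelin, none of 16 genes was called and the median was 0.08. Gjb1, the gap junction protein connexin 32 of Schwann cell myelin, had the largest change, 0.79, from 8.58 and 8.02 to 9.23 and 8.95 (adjusted p = 0.159). Mal differed by 0.26 and Egr2, a transcription factor that drives myelination, by -0.11. The median level over its members was 10.88 and 10.80 on the P7 arrays and 10.73 and 10.65 on the P10 arrays, and that of the oligodendrocyte list 8.47 and 8.44 against 9.63 and 9.21. A median level need not follow the median of the members' changes, which was 0.08 and 0.33. The difference between the lists was not tested.

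**Figure D2:**
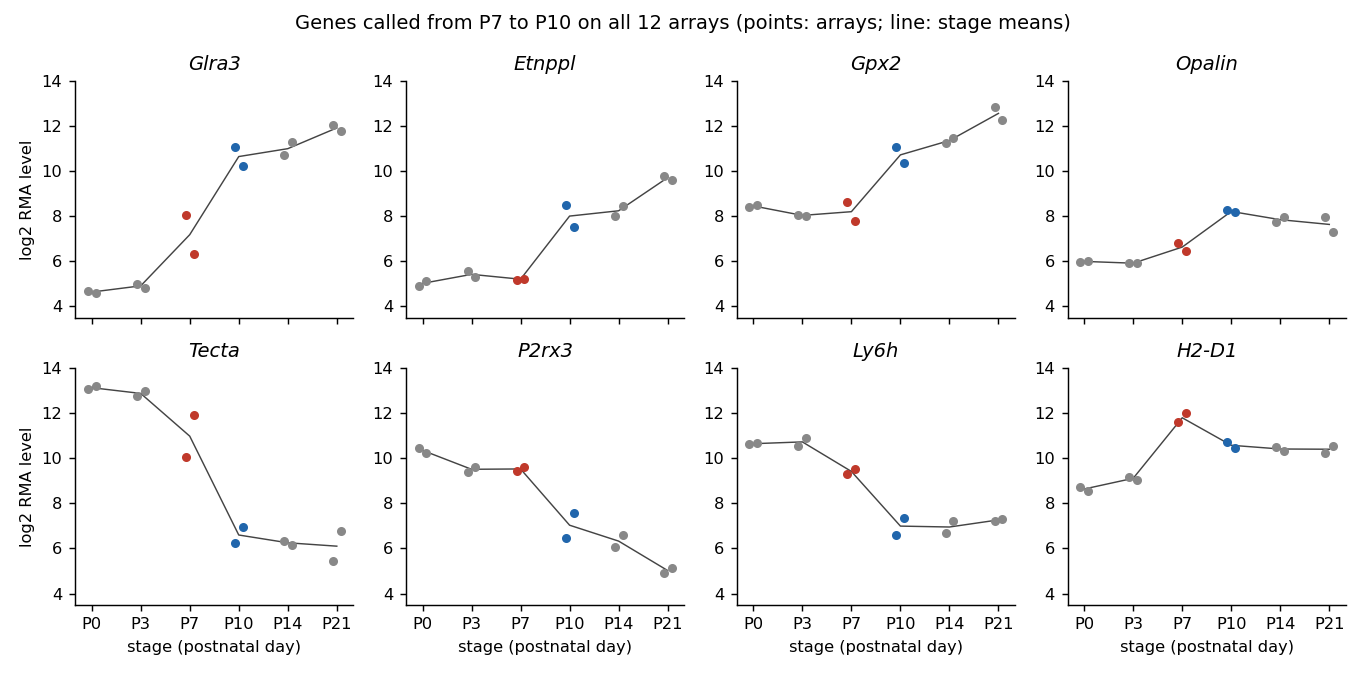
Log2 RMA level (vertical axis) of 4 genes called higher (top) and 4 called lower (bottom) against stage (horizontal axis); points are the 2 arrays of a stage, P7 in red and P10 in blue, and the line joins stage means. Etnppl is flat until P7 and then rises by 2.80, Tecta falls by 4.38, and H2-D1 peaks at P7.

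Other leading rises came from enzymes and secreted proteins. Gpx2, a glutathione peroxidase, read 8.64 and 7.77 at P7 and 11.08 and 10.37 at P10, a rise of 2.52 ± 0.30 (adjusted p = 0.017). Ptgs2, the inducible cyclooxygenase, went from 6.75 and 5.98 to 8.83 and 8.18, a rise of 2.14 ± 0.27 (adjusted p = 0.0192), with 0.39 on a second probe set that read 3.55 to 4.25. Cyp24a1, which inactivates vitamin D, rose by 2.00 ± 0.19 (adjusted p = 0.0135), from 5.07 and 4.36 to 6.60 and 6.82. Its P7 readings lay in the lowest 25% of values on both arrays, where RMA compresses differences, and its second probe set was not called. Rarres1, a gene induced by retinoids, rose by 2.71 ± 0.39 (adjusted p = 0.0331), from 8.65 and 8.48 to 11.40 and 11.16. Cox8b, a respiratory chain subunit, rose by 2.55 ± 0.37 (adjusted p = 0.0334), from 7.27 and 7.49 to 10.48 and 9.38. Anxa9, an annexin, and Spink8, a protease inhibitor, rose by 1.80 and 1.60. Of these genes Rarres1, Cyp24a1 and Ptgs2 had both P21 arrays below both P10 arrays: Rarres1 read 9.85 and 8.42 at P21, Cyp24a1 5.39 and 5.23, and Ptgs2 7.96 and 7.70.

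Ucma, Thbs4 and Mgp, which encode matrix proteins, rose too. Ucma, a secreted protein of cartilage, rose on both of its probe sets, from 10.02 and 10.07 to 11.62 and 11.65 on one (1.59 ± 0.18, adjusted p = 0.0163) and by 1.52 on the other. Thbs4, a thrombospondin of tendon and muscle matrix, rose by 1.41 ± 0.16 (adjusted p = 0.0163), from 6.61 and 6.83 to 8.16 and 8.09. Mgp, an inhibitor of matrix calcification and named here after its values were seen, rose by 0.82 from the already high readings of 13.10 and 13.08. In Ucma, Thbs4 and Mgp the P10 arrays were above both P7 arrays, and the P7 arrays were close together. The list of 18 cartilage genes does not hold Ucma, which was listed with the supporting cell, tectorial and otoconial genes. Among these 18 none was called and the median was 0.00. Prg4, the joint lubricant lubricin, differed most (1.80, adjusted p = 0.111). The 14 bone genes also had no call, with a median of -0.01.

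Further rises, named after their values were seen, included Nat8l, which makes N-acetylaspartate (1.53, from 10.23 and 9.55 to 11.43 and 11.40), Ch25h, a cholesterol hydroxylase (1.44), Col19a1, a minor collagen (1.09 and 1.21 on 2 of its 3 probe sets), and Kcng1, a modifier subunit of potassium channels (1.20). Wnt16, a Wnt ligand, rose by 1.25 ± 0.17 (adjusted p = 0.0238), from 6.90 and 6.55 to 8.02 and 7.92. The smallest rise called was 0.67, in Mrpl35, on 1 of its 3 probe sets. Nat8l and Kcng1 each had 2 probe sets, of which 1 was called.

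The largest fall was in Tecta, which encodes alpha-tectorin of the tectorial membrane, the gel that overlies the hair cells. Its level was 10.04 and 11.92 on the P7 arrays and 6.26 and 6.93 on the P10 arrays. The P10 readings were far below both P7 readings, which were 1.88 apart. The difference was -4.38 ± 0.55 (adjusted p = 0.0191), a 20.9-fold fall, with -3.44 without P7 replicate 2 and -5.33 without P7 replicate 1. Tecta had been at 12.76 and 12.99 at P3 and stayed low afterwards (6.33 and 6.17 at P14). Oc90, a matrix protein of the otoconia made by the otic epithelium, went from 11.31 and 11.90 to 9.54 and 9.83, a fall of 1.92 on the log2 scale (SE 0.23, adjusted p = 0.017), and continued to 5.48 and 5.72 at P21. Tectb, the partner of Tecta in the tectorial membrane, read 13.83 and 14.04 at P7 but 11.45 and 13.17 at P10 and missed the threshold (-1.62, adjusted p = 0.156). Of the 13 genes in the list of supporting cells, tectorial membrane and otoconia, 1 rose, 2 fell and 10 were not called, with a median of -0.18. The member that rose was Ucma, described above as a protein of cartilage. The connexins Gjb6 and Gjb2 differed by 0.70 and 0.38 (adjusted p = 0.166 and 0.371). Emilin2, an extracellular matrix protein of the epithelium, differed by 1.22 (adjusted p = 0.105).

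How much epithelium each dissection left is not given in the sources used here. The 16 hair cell genes, none of them called, had a median of 0.08, and the transcription factor genes Pou4f3 and Atoh1, which define hair cells, read 4.90 to 5.32 and 5.22 to 5.65 on the 4 arrays. Cabp2, a calcium-binding protein of hair cells, had the largest change of the list, 0.51, from 6.92 and 6.79 to 7.40 and 7.33 (adjusted p = 0.2). The part of the residual epithelium in the fall of Tecta and Oc90 was not tested.

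P2rx3, Dpp10, Ly6h and Grm3 were among the 12 largest falls. P2rx3, an ATP-gated channel of sensory neurons, read 9.45 and 9.60 at P7 and 6.48 and 7.58 at P10, a difference of -2.50 ± 0.30 (adjusted p = 0.017); its other probe sets differed by -1.13 (adjusted p = 0.0846) and 0.11 and were not called. Dpp10, an auxiliary subunit of A-type potassium channels, went from 8.77 and 9.02 to 5.95 and 6.54 (-2.65 ± 0.27, adjusted p = 0.014), and its other probe set fell by 1.79. Ly6h, a modulator of nicotinic receptors, went from 9.32 and 9.51 to 6.61 and 7.37 (-2.42 ± 0.24, adjusted p = 0.014). Grm3, a metabotropic glutamate receptor, went from 7.30 and 7.82 to 5.70 and 5.57 (-1.92 ± 0.22, adjusted p = 0.0163) and differed from the others in returning to 7.27 and 7.68 at P21. In each of these the P7 arrays were close to each other and above both P10 arrays. Bcl11b, a transcription factor of developing neurons, fell by 1.69 on the log2 scale (SE 0.16, adjusted p = 0.0135), from 8.75 and 8.81 to 6.96 and 7.23. Of its 4 probe sets 2 were called.

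Of the voltage-gated sodium channel genes 1 fell. Scn9a, the channel Nav1.7 of sensory neurons, went from 7.03 and 7.25 to 6.02 and 6.0, a fall of 1.13 (SE 0.15, adjusted p = 0.0219), and 2 of its 5 probe sets were called. It was the only member called among 11, and its called probe sets include 1 whose P10 readings lie in the lowest 25% of values. Scn3a, a channel of immature neurons, differed by -1.01 just above the threshold (adjusted p = 0.0518), with 7.29 and 7.17 at P7 and 6.37 and 6.07 at P10. Members above 0 included Scn7a, a channel also made by glia, at 1.03 (adjusted p = 0.288), Scn4b, an auxiliary subunit, at 1.01 (adjusted p = 0.163), and Scn8a, the channel Nav1.6 of nodes of Ranvier, at 0.51 (adjusted p = 0.562). The list median was -0.12. Potassium and HCN channels of firing had no call among 17 genes (median 0.14); Kcnc1, the fast channel Kv3.1, differed by 0.90, from 9.82 and 9.36 to 10.51 and 10.46 (adjusted p = 0.164). The 15 listed glutamate receptor genes (median -0.05) and the 14 genes of nodes and paranodes (median 0.11) had no call either. Gria2, an AMPA receptor subunit, differed by 0.78 (adjusted p = 0.279). The glutamate receptor list holds no metabotropic receptor, so Grm3, called lower above, is outside it.

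Broader neuronal lists showed no call. Over 27 genes of neuronal structure and synaptic release the median was 0.18, and Syt1, the calcium sensor of vesicle release, differed most (-1.32, adjusted p = 0.218). Over 16 genes of spiral ganglion identity the median was 0.05, and Lypd1, a marker of one class of spiral ganglion neurons, read 9.54 and 9.13 at P7 and 10.29 and 10.26 at P10 (0.94, adjusted p = 0.111). Axon growth genes had a median of -0.26, with 25 of 29 below 0. Gap43, a growth cone protein, differed by -1.42, from 8.40 and 8.61 to 6.62 and 7.55 (adjusted p = 0.0612), and it had the largest change in the list of 13 immature and repair Schwann cell genes too, where 12 lay below 0. Markers of cerebellar and brainstem neurons had a median of 0.09 with no call among 14; the largest change was in Calb1, a calcium buffer (-0.57, adjusted p = 0.332).

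Fibrous matrix genes divided between rise and fall. Mfap2, a microfibril protein, went from 10.93 and 11.56 to 9.69 and 9.99, a fall of 1.41 (SE 0.20, adjusted p = 0.0331), on 1 of its 2 probe sets. Thbs4 rose as given above, and the other 24 genes of the list of 26 were not called (median -0.08). Col16a1, a minor collagen, went from 10.22 and 10.36 to 9.54 and 9.65, a fall of 0.69 (adjusted p = 0.0372). It was the only call among the 32 listed collagen chains, whose median was -0.26 with 26 below 0. Col19a1, called higher as given above, is not on that list. Col3a1, a fibril collagen, fell by 0.84 on 1 of its 2 probe sets, the dimmer one, which does not represent the gene. Col6a3, a chain of microfibrillar collagen, had the largest change of the list at -0.91 (adjusted p = 0.271), and the basement membrane chains Col4a3 and Col4a4 differed by 0.83 and 0.61 (adjusted p = 0.171 and 0.113).

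Plagl1, Lef1 and Mdk, which act in growth and development, fell. Plagl1, an imprinted zinc finger gene, went from 11.07 and 11.50 to 10.06 and 10.38 (-1.06 ± 0.17, adjusted p = 0.042) and was the only call among 12 imprinted genes, whose median was -0.46 with 10 below 0; its other probe sets differed by -0.55 and 0.10. The imprinted genes Igf2, Grb10 and Cdkn1c, regulators of growth, differed by -0.77, -0.82 and -0.73 (adjusted p = 0.139, 0.0865 and 0.123), whereas Meg3, an imprinted long noncoding RNA, had the largest change of the list at 1.22, with overlapping arrays (adjusted p = 0.327). Lef1, a transcription factor of the Wnt pathway, went from 10.44 and 10.89 to 9.41 and 9.60 (-1.16 ± 0.17, adjusted p = 0.0339) on 1 of its 2 probe sets. With Wnt16 it made up the calls among 28 genes of Wnt and BMP signalling (median -0.09). Mdk, the growth factor midkine, and the RNA-binding genes Mex3a and Mex3b fell by 1.30, 1.16 and 1.30; these were named after their values were seen. Cell division genes had no call among 32, with a median of -0.31 and 28 below 0. Kif20a, a kinesin of cell division, differed most (-0.99, adjusted p = 0.417), Ccnd1, cyclin D1, differed by -0.81 (adjusted p = 0.0612) and Mki67, a proliferation marker, by 0.12 (adjusted p = 0.972).

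The remaining leading falls were in Glb1l2 (-1.74), a beta-galactosidase relative, Cpa6 (-1.74), a carboxypeptidase, Lrrc17 (-1.66), a secreted leucine-rich repeat protein, Rnf182 (-1.50), a ubiquitin ligase, and Rasl11b (-1.48), a small GTPase. Their adjusted p-values ran from 0.0169 to 0.0462. Glb1l2, Lrrc17 and Rnf182 each had 2 probe sets, of which 1 was called.

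H2-D1 and H2-K1, genes of MHC class I, whose products present peptides to T cells, were called lower. The called probe set of H2-D1 with the larger change read 9.18 and 9.04 at P3, 11.60 and 11.99 at P7 and 10.70 and 10.45 at P10. That of H2-K1 read 6.87 and 6.99, then 8.83 and 9.27, then 8.08 and 7.97. In both, P10 was below P7 and above P3. From P7 to P10 H2-D1 fell by 1.22 (SE 0.17, adjusted p = 0.0255) and H2-K1 by 1.02 (SE 0.14, adjusted p = 0.0285). The step differed from the preceding step by -3.90 (adjusted p = 0.000597) and -3.15 (adjusted p = 0.000631). Both steps use the P7 arrays, so genes chosen for P7 above P10 lean below 0 in this difference. H2-D1 and H2-K1 were the only calls among 20 genes of interferon response and MHC class I, whose median was -0.20. Psmb9 and Psmb8, subunits of the immunoproteasome, differed by -0.94 and -0.62 (adjusted p = 0.124 and 0.223), and Rsad2, an antiviral gene, by 0.61. MHC class I genes are a family of near-identical copies and the called probe sets contain probes that match several of them. Of 9 probe sets assigned to H2-D1, 2 were called and the others lay between -0.82 and -0.02, and of 4 assigned to H2-K1, 1 was called and the others lay between -0.99 and -0.19, so the values cannot be assigned to single genes with certainty.

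The RefSeq promoter sequences of the pair (build GRCm38.p6, 250 bases before to 50 after the start of the transcript, 5′ to 3′ on the strand of the gene) are shown because probe sets assigned to both were called lower and both hold motifs that have long been studied in this family. Capitals mark GGGATTCCC, a core of NF-kappaB sites known from MHC class I enhancers, and TTTCACTTC, the core of an interferon-stimulated response element. H2-D1 lies at chr17:35262844-35263143 on the plus strand and H2-K1 at chr17:34000298-34000597 on the minus strand.
H2-D1: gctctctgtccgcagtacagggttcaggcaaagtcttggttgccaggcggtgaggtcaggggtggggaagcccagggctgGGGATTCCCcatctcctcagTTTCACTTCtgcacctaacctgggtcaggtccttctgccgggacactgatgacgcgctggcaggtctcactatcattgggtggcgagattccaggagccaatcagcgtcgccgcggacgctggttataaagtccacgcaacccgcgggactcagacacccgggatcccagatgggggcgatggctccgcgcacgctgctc
H2-K1: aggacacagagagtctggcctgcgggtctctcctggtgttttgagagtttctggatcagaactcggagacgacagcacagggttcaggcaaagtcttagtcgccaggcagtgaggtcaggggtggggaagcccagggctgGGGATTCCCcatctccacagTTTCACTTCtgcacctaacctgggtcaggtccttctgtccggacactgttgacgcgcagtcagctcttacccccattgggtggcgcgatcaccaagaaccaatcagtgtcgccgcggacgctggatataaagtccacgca
The longest run of letters found in both was 47 bases. GGGATTCCC began 170 bases before the start in H2-D1 and 110 bases before it in H2-K1, and TTTCACTTC began 150 and 90 bases before it. Searched on both strands, where the 2 motifs do not overlap, GGGATTCCC was found in 116 of 32851 promoters of this length (0.353%) and TTTCACTTC in 166 (0.505%). Both motifs were held by 5 promoters, H2-D1 and H2-K1 among them. Promoters were matched for 16 of the 20 genes in the list, and H2-D1 and H2-K1 were the only ones of them with TTTCACTTC, while GGGATTCCC was also present in Irf1, an interferon-responsive transcription factor gene that was not called (0.13). Of the genes called lower 33 had a promoter entry, of those called higher 30, and among these H2-D1 and H2-K1 were the only promoters with either motif. Because the motifs were picked as ones studied in this family, their presence in the pair is no independent result about the genes that fell. The reference sequence comes from a strain of another MHC haplotype than CBA/CaJ.

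**Figure D3:**
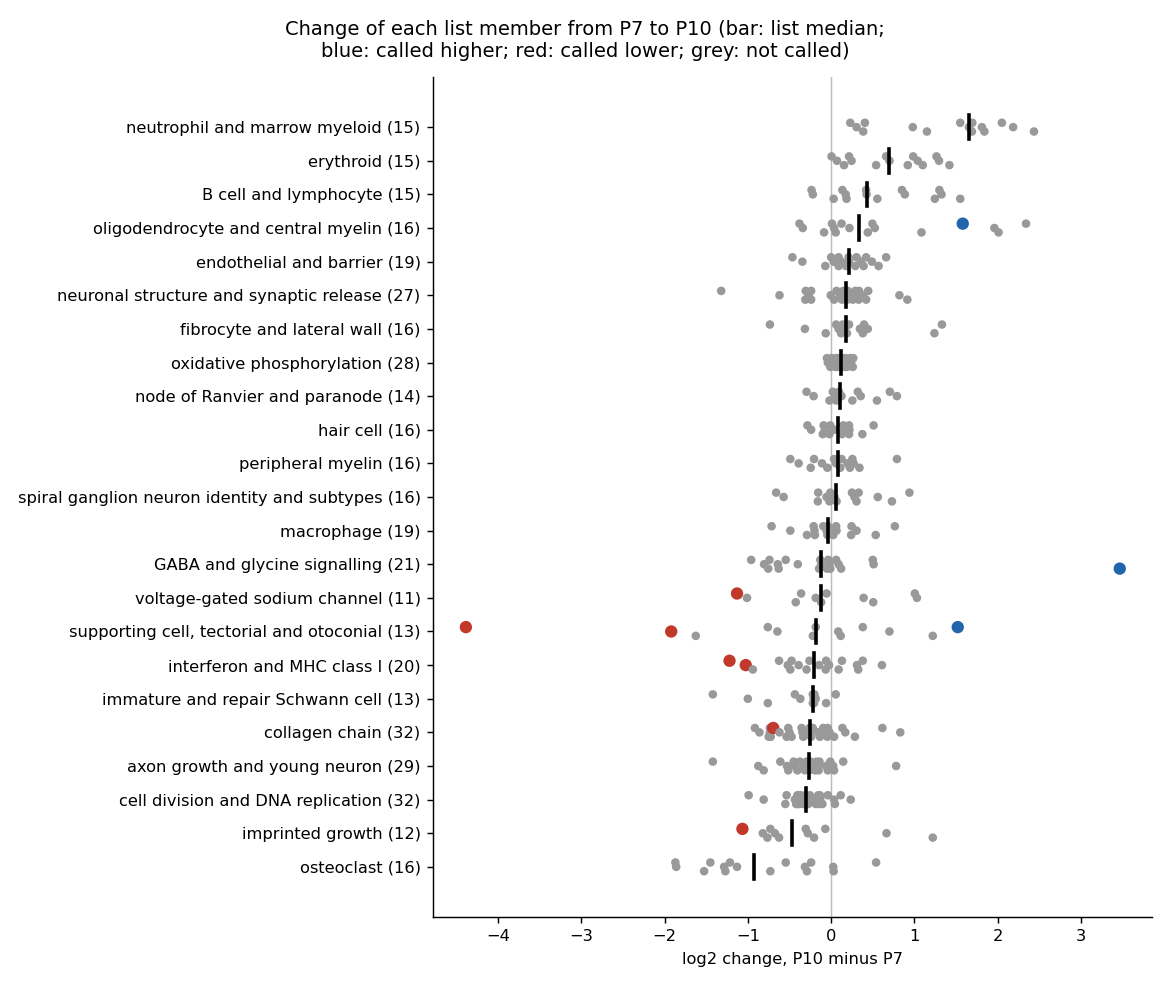
Log2 change from P7 to P10 (horizontal axis) of each member of 23 gene lists (vertical axis, number of genes in brackets); points are genes, black bars list medians, blue points genes called higher, red points genes called lower and grey points genes not called. The medians run from 1.66 for neutrophil genes to -0.93 for osteoclast genes, lists without a coloured point.

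The lists with the largest medians held no called gene. Neutrophil and marrow myeloid genes had a median of 1.66, and all 15 had both P10 arrays above both P7 arrays, as did 20.9% of all genes. Camp, an antimicrobial peptide of neutrophil granules, read 8.46 and 7.80 at P7 and 11.08 and 10.05 at P10 (2.44 ± 0.77, adjusted p = 0.241). S100a8, a calcium-binding protein abundant in neutrophils, read 11.17 and 10.81 and then 13.02 and 12.27 (1.66 ± 0.54, adjusted p = 0.252). The large standard errors came with a wide spread at other stages, the list's median level being 9.92 and 8.02 on the P14 arrays. Its median change was 1.18 without P10 replicate 1 and 2.00 without P10 replicate 2.

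Erythroid and lymphocyte lists had medians above 0 and macrophage genes did not, again with no call. Of 15 erythroid genes all lay above 0, with a median of 0.70 (0.46 without P7 replicate 2), and Hemgn, a nuclear protein of red cell precursors, read 8.96 and 7.21 at P7 and 9.52 and 9.49 at P10 (1.42, adjusted p = 0.422). The 15 genes of B cells and lymphocytes had a median of 0.42, and Cd79b, a subunit of the B cell receptor, read 6.27 and 6.61 and then 8.39 and 7.59 (1.55, adjusted p = 0.275). Macrophage genes had a median of -0.04 over 19, with Csf1r at -0.49 and Lyz2, which neutrophils also express, at 0.77 (adjusted p = 0.486). The share of marrow in each dissected sample is not given in the sources used here, and its part in these values was not tested.

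Osteoclast genes had a median of -0.93, with 13 of 16 below 0 and no call. Atp6v0d2, a proton pump subunit of osteoclasts, read 8.87 and 9.69 at P7 and 7.00 and 7.82 at P10 (-1.87 ± 0.42, adjusted p = 0.113). Ctsk, the collagenase cathepsin K, read 12.47 and 13.09 and then 11.39 and 11.74 (-1.22 ± 0.34, adjusted p = 0.189), and Dcstamp, needed for the fusion of osteoclast precursors, differed by -1.45 (adjusted p = 0.0892). P7 replicate 2 was the highest of the 4 arrays in 13 of the 16 genes, and the list's median change was -0.44 without it and -1.27 without P7 replicate 1. Mmp13, a collagenase of bone and cartilage, differed most among 17 metalloproteinase and TIMP genes (-2.25, adjusted p = 0.27; list median -0.12), and Tnfsf11, the osteoclast-forming ligand RANKL, most among the bone genes (-0.96).

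**Figure D4:**
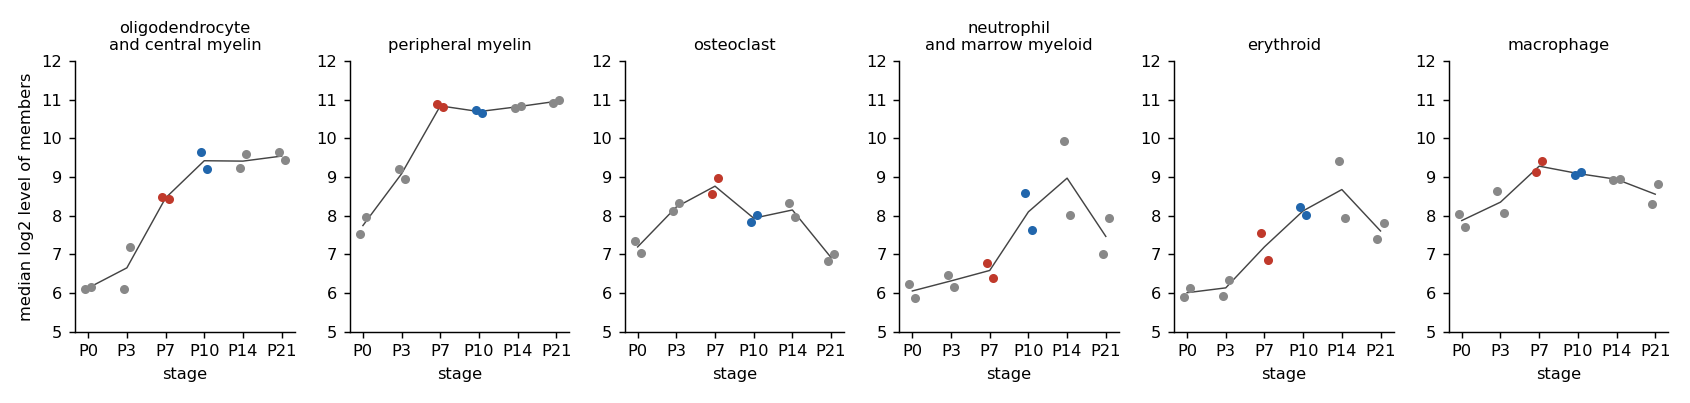
Median log2 RMA level of the members of 6 gene lists (vertical axis) on each array against stage (horizontal axis); points are arrays, P7 in red and P10 in blue, and lines join stage means. Peripheral myelin is level between P7 and P10, the oligodendrocyte list is at 9.63 and 9.21 at P10, osteoclast genes are highest at P7, and the neutrophil list differs most between the 2 arrays of P14 (9.92 and 8.02).

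Metabolic and other lists had medians nearer to 0 and no call. Oxidative phosphorylation genes had a median of 0.11 with 25 of 28 above 0, and cytosolic ribosomal protein genes a median of -0.15 with all 15 below 0. In these lists the largest single changes were 0.27 in Ndufb9 and -0.36 in Rpl14. The oxidative phosphorylation list does not hold Cox8b, the respiratory chain subunit called higher above. Cholesterol synthesis genes had a median of -0.17 over 20. Endothelial and barrier genes had a median of 0.21 over 19, and Slco1a4, a transporter of the blood-brain barrier, differed by 0.66 (adjusted p = 0.397). The 16 fibrocyte and lateral wall genes had a median of 0.18; Slc26a4, the anion exchanger pendrin, differed by 1.33 (adjusted p = 0.271) and Coch, the matrix protein cochlin, by 1.24, from 13.19 and 12.27 to 14.12 and 13.82 (adjusted p = 0.0914). Crym, a thyroid hormone-binding protein, read 8.64 and 9.78 and then 7.50 and 7.93 (-1.50, adjusted p = 0.0764), and Cyp26b1, which degrades retinoic acid, differed by -1.44 (adjusted p = 0.142). Of 17 genes of the glucocorticoid response none was called (median 0.33); Lcn2, an iron-binding protein that neutrophils also make, differed most (1.69, adjusted p = 0.478). In all, 9 of 49 lists held a called gene and 40 held none. Of 803 different genes in the lists, 5 were called higher and 9 lower (1.74%), where 0.385% of all genes were called. The lists were chosen with earlier results of these data known, so the higher share is no independent result.

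The histone deacetylases and the genes the study followed by PCR showed no call. Hdac1 read 10.49 and 10.55 at P7 and 10.26 and 10.34 at P10 (-0.22 ± 0.13, adjusted p = 0.553), and Hdac2 differed by -0.06. The median over 11 deacetylases was -0.12. Of 13 genes of the PCR panel, Sox2, a transcription factor of progenitors and young glia, had the largest change, from 11.58 and 11.98 to 10.89 and 11.15 (-0.76 ± 0.16, adjusted p = 0.0923). Its arrays did not overlap, but the adjusted p was above the threshold. Ednrb, the endothelin B receptor, differed by -0.73, Foxd3 by -0.43, Nedd4l by -0.36, Dcx by -0.26 and Ngfr by -0.18. Gfap and Gdnf differed by 0.61 and 0.40, and Nes and Shh each by -0.04; apart from Sox2, adjusted p-values of the panel ran from 0.189 to 0.971.

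The pace of change was set beside the adjoining steps, which share the P7 or the P10 arrays with it. From P3 to P7, over 4 days, 4496 probe sets were called (9.98%), and from P10 to P14 none was (3472 at an unadjusted p under 0.05). A direct test of the difference between steps, (P10 minus P7) minus (P7 minus P3), passed in 484 probe sets (1.07%), with 385 below 0 and 99 above. The same test against the step from P10 to P14 passed in none (2113 at an unadjusted p under 0.05; lowest adjusted p 0.254), so no probe set can be called particular to P7 to P10 against what followed.

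Both steps use the P7 arrays, so the sign of their difference is partly set by how the probe sets were chosen. Those chosen for P7 above P10 lean below 0, and those chosen for P7 below P10 lean above 0. Among the 47 probe sets called higher, the step exceeded the preceding one in 9 and fell short of it in 1. These 9 named 8 genes: Etnppl, Ppp1r14a, Kcng1, Ooep, Corin, Mymx, Higd1b and Crip1. Corin, a protease that activates natriuretic peptide, fell from 7.94 and 8.13 at P3 to 7.33 and 7.14 at P7 before it rose to 8.58 and 8.06 at P10 (difference of steps 1.89, adjusted p = 0.0183). Bmp8a, a BMP ligand, was the gene with the smaller step: it rose by 0.76 after a larger rise from P3 to P7 (difference -1.70, adjusted p = 0.00472). Among the 57 called lower, 20 differed from the preceding step, all below 0, and 19 of these had a P7 mean above the P3 mean. They included Lepr, the leptin receptor, at 9.78 and 9.93, 10.86 and 11.02, then 9.84 and 9.99 over P3, P7 and P10, and Spon1, an axon guidance protein, at 8.39 and 8.59, 9.89 and 10.05, then 8.66 and 8.66. Each gene had 4 probe sets, of which 2 were called for Lepr and 1 for Spon1.

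The mean levels at P14 and P21 were set against those at P0 and P3, on 8 arrays that are not part of the step. A check of RNA quality set the P21 arrays apart. The 3′ control probe set of Actb read above the 5′ one by 2.32 and 2.03 there, against 0.81 to 1.41 on the other arrays. For Gapdh the differences were 1.65 and 1.37, against 0.18 to 0.68. The part of RNA quality in the P21 levels and in the spread was not tested. Of the 47 probe sets called higher, 39 (83%) were above 1.5-fold higher in the later stages and none lower, where 11.2% of all probe sets were higher; the median difference was 1.77. Of the 57 called lower, 43 (75.4%) were above 1.5-fold lower, against 11.9% of all probe sets, and 6 were higher, with a median of -1.81. These counts, added after the data were seen, rest on mean differences and no test. With the adjusted p added they were also 39, 43 and 6, but that test takes its spread from all 12 arrays, as the choice of the probe sets did, and is not independent of it. The 6 were the called probe sets of H2-D1, H2-K1 and Unc13c and 2 without a single symbol. Unc13c, a vesicle priming factor, was the 1 probe set among 104 whose P14 level did not stay beyond P7: it read 7.29 and 7.35 at P7, 6.23 and 6.31 at P10 and 7.40 and 7.37 at P14. The gene had 3 probe sets, and the other 2 were not called. The comparison of P14 with P7 uses the P7 arrays, which also served to choose the 104 probe sets. Its outcome is therefore partly set by that choice. Ooep and Higd1b, which rose to P10, differed by 0.05 and -0.17 between the late and early stages.

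**Figure D5:**
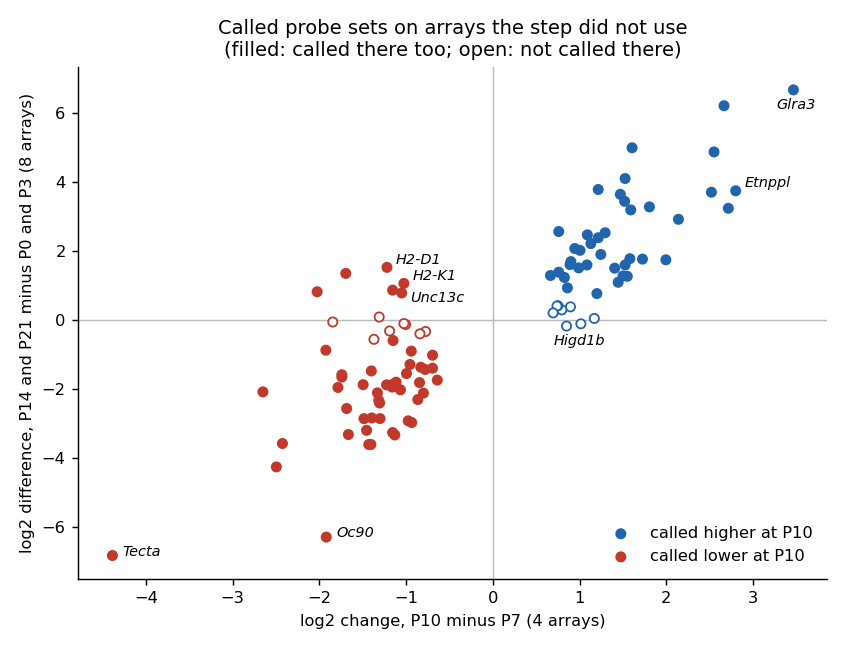
Each called probe set by its log2 change from P7 to P10 (horizontal axis, 4 arrays) and its log2 difference between the mean of P14 and P21 and the mean of P0 and P3 (vertical axis, the 8 other arrays); blue, called higher; red, called lower; filled, also called on the vertical axis; open, not. Of 47 blue points 39 are filled above 0, and of 57 red points 43 are filled below 0 and 6 above.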

How the data were processed

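RNA of 12 modiolus samples, 100 ng each per the labels, was labelled with a 3′ amplification kit and hybridised to Affymetrix whole-genome mouse expression arrays. The values used are the deposited log2 signals that the authors made with RMA in Affymetrix Expression Console (MAS5 is also named; versions not given in the sources used here); RMA subtracts background, equalises the distributions of the arrays and summarises probes, which compresses low levels. The table held 45101 probe sets, of which 64 controls were left out. The platform annotation gave 34945 probe sets a single symbol, 932 several and 9160 none. The text names a gene only from the first kind, and 845 of 929 list entries were matched, by current symbol or, where a listed symbol is no current one, by synonym.

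Differences were tested two-sided in R 4.3.3 with the limma package, version 3.58.1 (linear model and moderated statistics over 12 arrays in 6 groups of 2, Benjamini-Hochberg adjustment over 45037 probe sets). The arrays, gene lists and naming rule were chosen with earlier results of these data known. The rule names, from called genes whose symbol is no placeholder and whose stages do not overlap, the 12 that rose most and the 12 that fell most, up to 4 called members of each of 49 lists or else the member with the largest change, Hdac1, Hdac2 and the 13 genes of the PCR panel. Any further gene in the text was picked with its values in view. The study's methods tested P3, P7 and P10 against P0 by unpaired t-test. No batch is named for any array, and the number of arrays limits the precision. The labels do not say whether replicate numbers pair the arrays, and the main fit did not pair them. Alternatives left out each array and changed the spread, scaling, filter, fold limit, block and test.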

Additional observations from a re-analysis of the deposited data

How the results depend on the processing

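The count of 104 called probe sets (47 higher, 57 lower) stayed within 1.5 times with the dimmest probe sets left out (97), with arrays shifted to 1 median (104), after a second quantile normalization (103), without a fold limit (105) and at a fold above 2 (74). It was 225 (107 higher, 118 lower) with an intensity trend, 358 (172 and 186) with array weights and 2 (2 and 0) with the 4 arrays alone. The methods' t-test gave 416 (241 and 175) at their unadjusted threshold and 0 after Benjamini-Hochberg adjustment. Leaving out 1 array in turn gave 2 to 318 called, 1 to 131 higher and 0 to 187 lower. The difference from the preceding step passed in 484 probe sets, in 780 with array weights and in 73 to 651 without 1 array, and the difference from the following step in 0 to 4. The labels do not say whether replicate numbers pair the arrays, and the main fit did not pair them. Of 15 correlations between same-numbered deviations, 6 were over 0.1 and 2 under -0.1. The highest was 0.317, for P7 and P10, so a factor shared by same-numbered arrays of these stages remains possible. With the replicate number as a block 126 probe sets were called, 90 of them among the 104. The 34 called probe sets of the naming rule, from 33 genes, kept their call under the block, the trend, the weights and both rescalings. Their direction was the same in every setting they were tested in, but this was largely fixed by the choice. In all 104 the P7 and P10 arrays did not overlap, so leaving out 1 array could not reverse a direction. Shh, at -0.04, was 0.06 without P10 replicate 1 and -0.14 without P10 replicate 2. Without 1 array the median of 8 of 49 gene lists changed sign and that of 36 moved by over 1.5 times; of the 8 lists with a median beyond 0.3 in size none changed sign. The cause of these shifts was not tested.

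With 2 arrays a stage, a missing call does not show that levels were equal. Values in the lowest 25% of an array are compressed by RMA. In 7 of the 104 called probe sets the dimmer stage lay there, those of Cyp24a1 and Mymx at P7 among them. The 8 arrays of other ages decide much of the spread estimate.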
